A study of Homo sapiens with 6 samples.

Results

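The genes described here copy damaged DNA or control that copying: the translesion synthesis enzymes POLH, POLI, POLK, REV1, REV3L with its partner MAD2L2, POLQ and PRIMPOL, and the regulators RAD18 and USP1. They were chosen by symbol, and each of the 10 matched 1 row of the 28565 genes in the count table. All 10 passed the filter on low counts, which left 13389 genes for testing. Every library came from HK-2, a papillomavirus-immortalized epithelial cell line from the human kidney's proximal tubule, and all cells carried the overexpression plasmid for the lncRNA that the titles call LncR2. The cells had been exposed to cisplatin for 24 h (3 libraries) or for 0 h (3 libraries). Cells with the negative control plasmid were not analysed here, so cisplatin and time after transfection cannot be told apart, and the effect of the lncRNA was not measured. The design text speaks of 2 biological replicates, and whether the 3 libraries of a time are independent cultures is not in the labels, so p-values measure only the spread between these libraries.

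Cisplatin links neighbouring bases of DNA, and replicative polymerases stall at such links. Translesion polymerases have open active sites that copy across damaged bases at the price of more errors. RAD18 attaches ubiquitin to the sliding clamp PCNA at a stalled fork, which draws in the Y-family enzymes, and USP1 removes that ubiquitin. For platinum links, POLH is known to insert opposite the damage and polymerase zeta, built on REV3L and MAD2L2, to extend from it. Proximal tubule cells take up cisplatin and are the main site of its kidney toxicity.

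Library totals lay between 6022268 and 7248754 counts at 24 h and between 5028881 and 5844246 counts at 0 h. Markers of tubule epithelium (KRT8, KRT18, KRT7, KRT19, PAX8, CDH2, EPCAM and CDH1) summed to 1201 to 1306 CPM (counts scaled to a common library size, here without TMM) at 24 h and 1246 to 1316 CPM at 0 h, with CDH1 near 0. Of the markers of mature proximal tubule, AQP1, SLC34A1, SLC5A2, ANPEP and HNF4A stayed under 1 CPM in every library, while GGT1 averaged 59.0 CPM at 24 h and 53.4 CPM at 0 h. Fibroblast markers summed to 16.8 to 20.6 CPM at 24 h and 15.9 to 18.7 CPM at 0 h, leukocyte markers to 1.52 to 3.56 CPM at 24 h and 2.38 to 2.91 CPM at 0 h, and endothelial markers stayed under 1 CPM. The library 0 h replicate 3 stood apart from the other 2 at 0 h on the first principal component (1.28, against -23.8 and -24.5), and values without it are given where they change a call.

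None of the 10 translesion genes passed the test between 24 h and 0 h of cisplatin. With edgeR's quasi-likelihood test and Benjamini-Hochberg adjustment over all genes tested, 0 rose and 0 fell, while 0.866% of all genes tested rose, 2.08% fell and 2.94% were called in either direction. DESeq2 also called 0 of the 10, beside 1.17% of the 28565 genes in its fit. At an unadjusted p under 0.05 there were 2, POLH (lower) and PRIMPOL (higher), beside 18.1% of all genes tested in either direction and 8.22% higher. The median log2 fold change of the 10 was 0.0018, beside -0.0016 for all genes tested, with 5 above 0 and 5 below. The 95% intervals of 8 of the 10 lay within a 1.5-fold change in either direction, and the exceptions were POLI and PRIMPOL, the members with the fewest counts. Without 1 library, 0 of the 10 were called in all 6 fits, beside 0.826% to 10.9% of all genes tested in those fits. Levels below are CPM of libraries scaled by TMM, a scaling that takes most genes as steady.

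**Figure D1:**
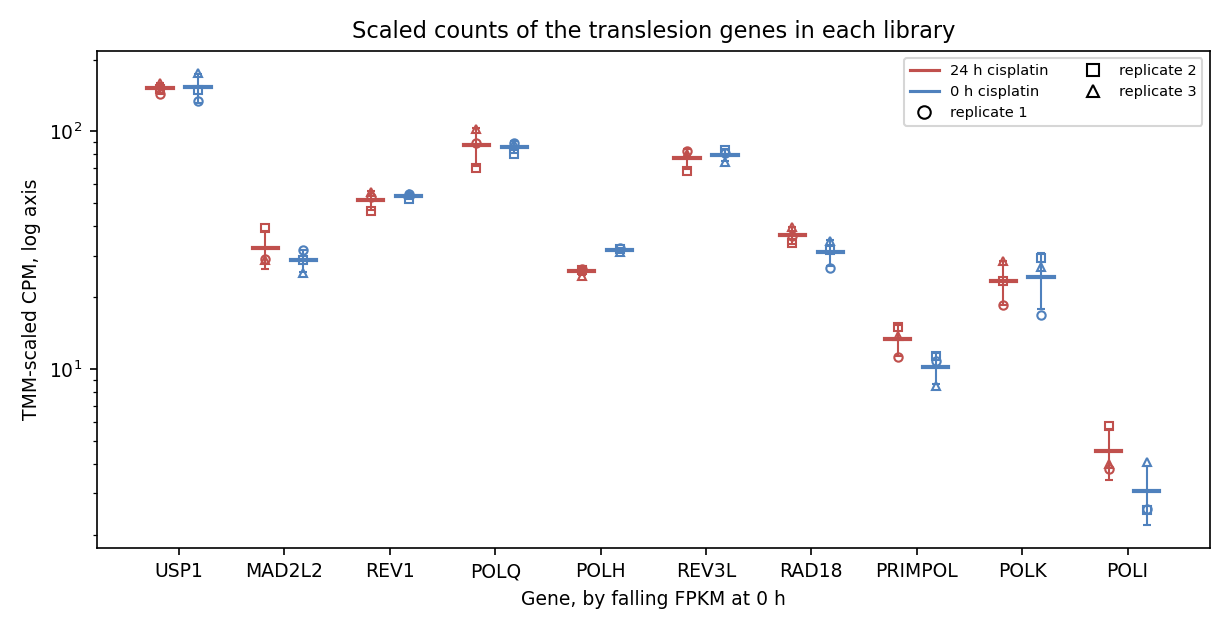
TMM-scaled CPM (log axis) of each translesion gene in each library at 24 h (left of each pair) and 0 h of cisplatin. Symbols are replicates, thick bars are means and thin bars are SD (n = 3 each). Only POLH shows 2 groups that do not overlap, at 24.7 to 26.4 CPM at 24 h and 31.1 to 32.3 CPM at 0 h.

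The genes were first placed in GENCODE 29 on GRCh38, where each carried the same identifier version as in the deposited tables. Their spans ran from 15.5 kb for USP1 (chromosome 1, 62436297 to 62451804) to 188.4 kb for RAD18 (chromosome 3, 8775402 to 8963773), beside a median of 31.3 kb over tested genes. POLH lies on chromosome 6 from 43576150 to 43615660 and PRIMPOL on chromosome 4 from 184649613 to 184694963. REV3L spans 184.7 kb on chromosome 6 (111299028 to 111483715), and MAD2L2 spans 17.2 kb on chromosome 1 (11674480 to 11691650). REV1 lies on chromosome 2 from 99400475 to 99490035, POLK on chromosome 5 from 75511756 to 75601144, POLQ on chromosome 3 from 121431427 to 121546641 and POLI on chromosome 18 from 54269404 to 54321266. The starts of 6 members lay within 1000 bases of the start of a gene on the opposite strand, beside 28.5% of tested genes. For POLH with XPO5 and for MAD2L2 with DRAXIN, the starts face away from each other and leave a short stretch between them. The sequences of these stretches, from RefSeq windows on GRCh38.p14, are shown because POLH, the member whose groups did not overlap, shares its stretch with a second tested gene, and MAD2L2 is set beside it for comparison. They are written on the strand of the member, with GC boxes (GGGCGG on either strand, overlaps included) in capitals.

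POLH, chr6:43576076-43576149, plus strand: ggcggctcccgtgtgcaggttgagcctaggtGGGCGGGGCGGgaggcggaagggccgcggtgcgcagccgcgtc
MAD2L2, chr1:11691651-11691728, minus strand: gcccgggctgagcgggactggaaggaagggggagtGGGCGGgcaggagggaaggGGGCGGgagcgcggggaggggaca

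These stretches measured 74 bases for POLH and 78 for MAD2L2, with a GC content of 78.4% for POLH and 76.9% for MAD2L2, and each held 2 GC boxes. XPO5, an export receptor for microRNA precursors, was at -0.12 ± 0.11 on the log2 scale beside -0.30 ± 0.12 for POLH (SE, n = 3 each). The difference between them was not tested. DRAXIN had 0 to 2 counts per library at both times, so that no value could be set beside MAD2L2.

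The Y-family enzymes hold the main insertion polymerases. POLH (polymerase eta, ENSG00000170734.11) is lost in the variant form of xeroderma pigmentosum. POLH had 26.4, 26.2 and 24.7 CPM in 24 h replicates 1, 2 and 3, against 32.3, 32.0 and 31.1 CPM in 0 h replicates 1, 2 and 3. All 3 libraries at 24 h lay below all 3 at 0 h, and replicates differed little from each other. Such a separation downward was seen for 1 of the 10 members, against 11.7% of all genes tested. It measured -0.30 ± 0.12 on the log2 scale, 24 h over 0 h (SE, n = 3 each), with a 95% interval from -0.56 to -0.047, which is 0.811-fold (0.678 to 0.968). The unadjusted p was 0.0235 and the Benjamini-Hochberg adjusted p by edgeR 0.195, so POLH was not called. In such bulk libraries fewer cells of a type and less RNA per cell cannot be told apart. Without 1 library the estimate stayed between -0.32 and -0.28.

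POLI (polymerase iota, ENSG00000101751.10) inserts opposite damaged bases with unusual pairing and was the least abundant member. Its raw counts were 23, 40 and 29 in 24 h replicates 1, 2 and 3, against 13, 13 and 23 in 0 h replicates 1, 2 and 3. Scaled, these were 3.79, 5.79 and 3.98 CPM at 24 h, against 2.59, 2.55 and 4.06 CPM at 0 h. The groups overlapped because 0 h replicate 3 exceeded 2 of the 24 h libraries. Its log2 fold change of 0.55 ± 0.30 (SE, n = 3 each) was the largest among the members and had the widest interval, from -0.092 to 1.19. Its adjusted p by edgeR was 0.359. At this depth the interval for POLI took in both no change and a level 2.28-fold higher. Without 0 h replicate 3 the estimate was 0.82 ± 0.36, and without 24 h replicate 2 it was 0.33 ± 0.34, neither of them called.

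POLK (polymerase kappa, ENSG00000122008.15) extends mispaired ends and bypasses bulky adducts. It had 18.6, 23.4 and 28.4 CPM in 24 h replicates 1, 2 and 3, against 16.9, 29.2 and 26.8 CPM in 0 h replicates 1, 2 and 3. Replicates varied more than the groups did, with a coefficient of variation of 20.7% at 24 h and 26.7% at 0 h. POLK gave a log2 fold change of -0.047 ± 0.19 (SE, n = 3 each) with an interval from -0.45 to 0.36, and the edgeR adjusted p was 0.926. Its sign turned in 3 of the 6 fits that left out 1 library. These lacked 24 h replicate 1 (0.089 ± 0.20), 0 h replicate 2 (0.095 ± 0.22) or 0 h replicate 3 (0.035 ± 0.17).

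REV1 (ENSG00000135945.9), a deoxycytidyl transferase, serves mainly as the scaffold on which the other translesion polymerases assemble. REV1 had 52.6, 46.2 and 55.3 CPM at 24 h, against 54.4, 51.7 and 54.4 CPM at 0 h. The 24 h libraries spanned the 0 h ones. Their difference was -0.060 ± 0.11 on the log2 scale (SE, n = 3 each), and the interval from -0.30 to 0.18 places REV1 between 0.815-fold and 1.13-fold. Its estimate was 0.015 ± 0.12 without 24 h replicate 2. In the annotation 852 bases, 11.0% of the exon sequence of REV1, are also exon of the more highly counted EIF5B on the opposite strand. The use of strand in counting is not given in the sources used here.

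Polymerase zeta extends the ends that the inserting enzymes leave. REV3L (ENSG00000009413.15), its catalytic subunit, had 82.1, 68.3 and 80.2 CPM at 24 h, against 81.1, 83.3 and 74.1 CPM at 0 h. The lowest value belonged to 24 h replicate 2, and the groups overlapped. REV3L had a log2 fold change of -0.049 ± 0.11 (SE, n = 3 each) with an interval from -0.28 to 0.18, and it was 0.033 ± 0.12 without 24 h replicate 2. MAD2L2 (REV7, ENSG00000116670.14), which binds REV3L to REV1 and also forms part of shieldin, had 29.03, 39.1 and 28.8 CPM at 24 h, against 31.7, 28.8 and 25.4 CPM at 0 h. A single library, 24 h replicate 2, stood above the other 5. For MAD2L2 the log2 fold change was 0.18 ± 0.15 (SE, n = 3 each), with an interval from -0.14 to 0.49, and it was 0.018 ± 0.15 without that library. Further subunits of the human zeta holoenzyme are shared with polymerase delta. POLD2 averaged 116 ± 4.92 CPM at 24 h and 97.8 ± 5.95 CPM at 0 h, and POLD3 averaged 35.8 ± 2.42 CPM at 24 h and 36.0 ± 2.21 CPM at 0 h (SD, n = 3 each). Neither was called, with edgeR adjusted p = 0.204 for POLD2 and 0.991 for POLD3.

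POLQ and PRIMPOL stand outside the Y family. POLQ (polymerase theta, ENSG00000051341.13) joins broken ends through short homologies. It had 89.6, 70.3 and 102 CPM at 24 h, against 89.5, 80.4 and 88.3 CPM at 0 h. The libraries at 24 h spread more widely, with a coefficient of variation of 18.1% at 24 h and 5.77% at 0 h, and enclosed all 0 h values. The group means differed by 0.019 ± 0.13 on the log2 scale (SE, n = 3 each) with an interval from -0.25 to 0.28, and the sign changed without 24 h replicate 3 (-0.11) or 0 h replicate 2 (-0.032).

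PRIMPOL (ENSG00000164306.10) is a primase that can restart synthesis beyond a lesion. PRIMPOL had 11.2, 15.1 and 13.7 CPM in 24 h replicates 1, 2 and 3, against 10.8, 11.4 and 8.47 CPM in 0 h replicates 1, 2 and 3. Replicates 2 and 3 at 24 h exceeded every library at 0 h, and 24 h replicate 1 lay just below 0 h replicate 2. For PRIMPOL the log2 fold change was 0.39 ± 0.19 (SE, n = 3 each), or 1.31-fold, with an interval from 1.00-fold to 1.73-fold. Its unadjusted p was 0.0490 and its Benjamini-Hochberg adjusted p by edgeR 0.272. The estimate was above 0 in all 6 fits without 1 library, from 0.28 without 0 h replicate 3 to 0.50 without 24 h replicate 1. In the annotation 346 bases, 12.2% of its exon sequence, are also exon of CENPU on the opposite strand. CENPU averaged 188.5 counts per library, against 48 to 104 for PRIMPOL, with the same limit on counting as for REV1. Opposite-strand exon overlaps with any 1 gene were at most 6.60% for POLI, 4.64% for REV3L, 2.53% for POLK and 0.113% for POLH.

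Among the regulators, RAD18 (ENSG00000070950.9), the ubiquitin ligase that marks PCNA, had 36.3, 33.7 and 39.6 CPM in 24 h replicates 1, 2 and 3, against 26.7, 31.8 and 34.6 CPM in 0 h replicates 1, 2 and 3. The groups overlapped only through 24 h replicate 2 and 0 h replicate 3. RAD18 had a log2 fold change of 0.23 ± 0.13 (SE, n = 3 each), with an interval from -0.043 to 0.51 and an edgeR adjusted p of 0.365. It ran from 0.14 without 0 h replicate 1 to 0.33 without 0 h replicate 3. USP1 (ENSG00000162607.12), the protease that reverses the mark, had 144, 151 and 159 CPM at 24 h, against 134, 150 and 175 CPM at 0 h. The 0 h libraries enclosed those at 24 h, with 0 h replicate 3 the highest of all. USP1 gave -0.015 ± 0.11 (SE, n = 3 each), an interval from 0.842-fold to 1.16-fold, and turned in sign without 24 h replicate 1 (0.019 ± 0.13) or 0 h replicate 3 (0.098 ± 0.11).

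**Figure D2:**
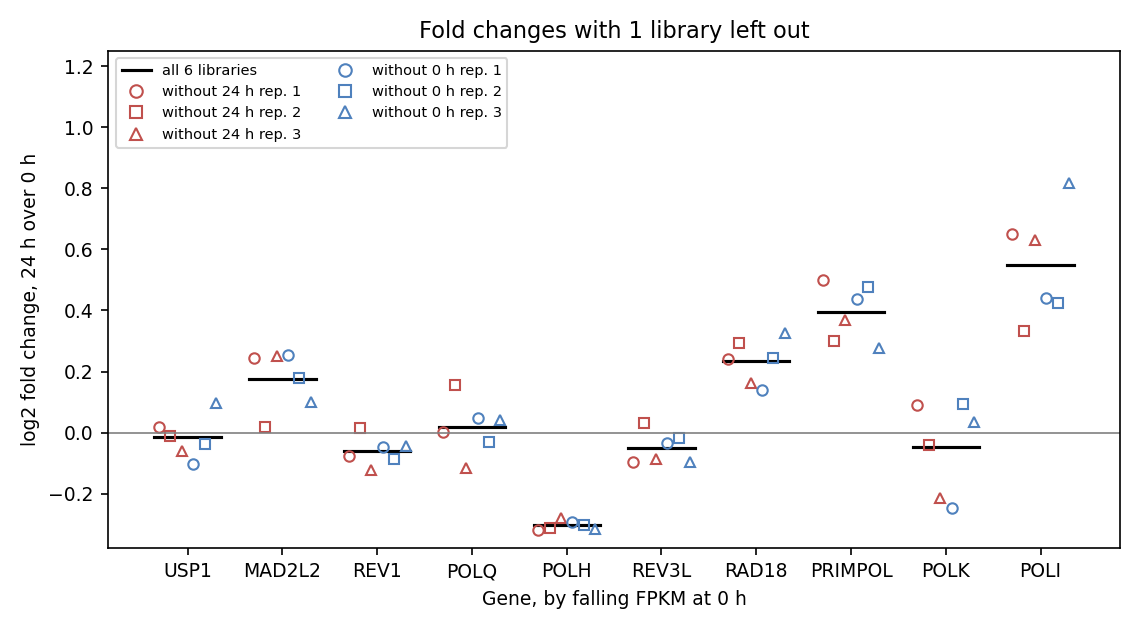
Log2 fold change of each translesion gene (24 h over 0 h) with all 6 libraries (black line) and with 1 library left out (symbols; colour gives the time and shape the replicate left out). POLH stays between -0.32 and -0.28 and PRIMPOL between 0.28 and 0.50, whereas POLK, POLQ, USP1, REV1 and REV3L fall on both sides of 0.

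Since a fold change depends on how libraries are scaled, each member was also taken as a percentage of the 10 members' summed counts, which no library scaling alters. POLH made up 5.35%, 5.47% and 4.61% of that sum at 24 h, against 6.73%, 6.38% and 5.95% at 0 h, and its groups did not overlap. RAD18 made up 7.35%, 7.04% and 7.41% at 24 h, against 5.57%, 6.34% and 6.63% at 0 h, with every 24 h value the higher. PRIMPOL made up 2.27%, 3.14% and 2.56% at 24 h, against 2.24%, 2.27% and 1.62% at 0 h, where the nearest values of the groups both round to 2.27%. The percentages of the other 7 members overlapped between the times. Percentages of the members' sum were chosen after the values were seen and carry no test. They are tied to each other by the common sum, so a member's percentage can also shift because others moved. No share over all genes was computed for this measure, so these separations have no background to be set beside. By TMM-scaled CPM the groups of RAD18 and of PRIMPOL overlapped. By that measure 0 of the 10 members lay wholly higher at 24 h and 1, POLH, wholly lower. Among all genes tested 10.9% lay wholly higher and 11.7% wholly lower by that measure.

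Levels of different genes were compared by FPKM, the authors' value per length. The order of the group means was the same at both times: USP1, MAD2L2, REV1, POLQ, POLH, REV3L, RAD18, PRIMPOL, POLK and POLI. USP1 averaged 23.7 ± 2.67 FPKM at 24 h and 20.2 ± 2.74 FPKM at 0 h (SD, n = 3 each), above every other member in all 6 libraries. MAD2L2 followed with 11.3 ± 2.40 FPKM at 24 h and 8.50 ± 0.926 FPKM at 0 h. REV1, POLQ, POLH and REV3L lay between 4.14 and 8.12 FPKM at 24 h and between 3.70 and 6.43 FPKM at 0 h. At 24 h the libraries of POLQ all lay above those of POLH, while REV1 overlapped POLQ and POLH overlapped REV3L. At 0 h REV1 lay above POLQ and POLH above REV3L without overlap, while POLQ and POLH overlapped. RAD18, PRIMPOL and POLK, of 1.92 to 4.70 FPKM at 24 h and 1.59 to 3.30 FPKM at 0 h, overlapped their neighbours among themselves at both times. POLI closed the order at 0.467 ± 0.129 FPKM at 24 h and 0.263 ± 0.0751 FPKM at 0 h, and no other member came below 1.59 FPKM.

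**Figure D3:**
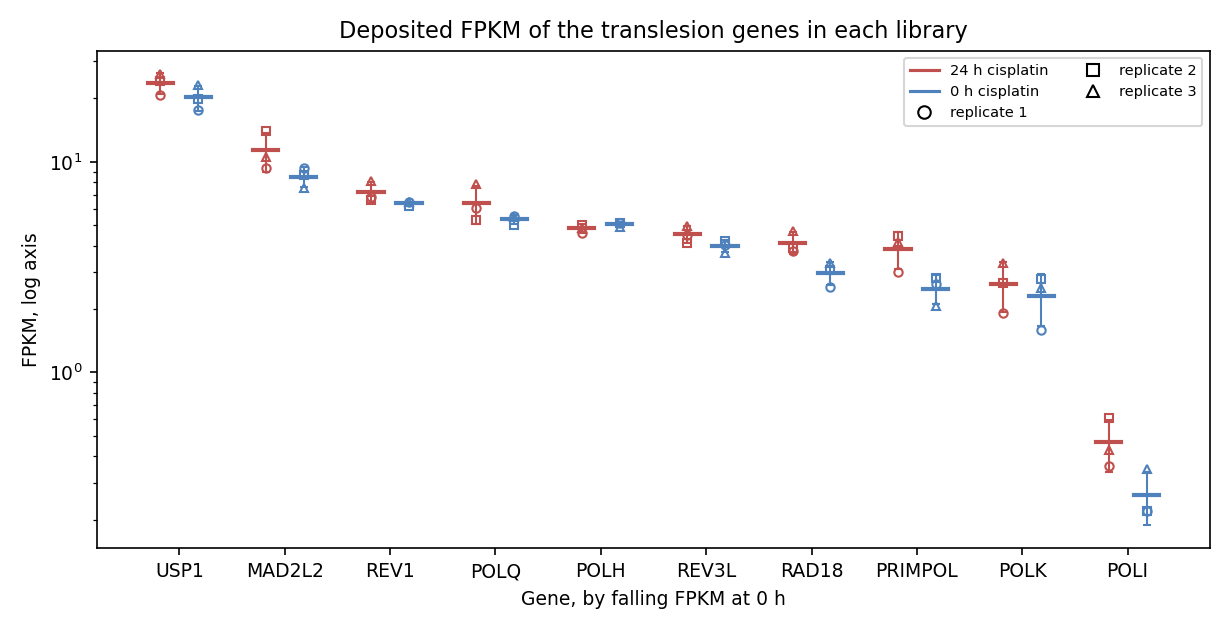
Deposited FPKM (log axis) of each translesion gene in each library at 24 h (left of each pair) and 0 h of cisplatin. Symbols are replicates, thick bars are means and thin bars are SD (n = 3 each). USP1 is highest at 20.8 to 26.1 FPKM at 24 h and 17.6 to 23.1 FPKM at 0 h, and POLI is lowest at 0.36 to 0.61 FPKM at 24 h and 0.22 to 0.35 FPKM at 0 h.

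The FPKM values gave another picture of direction than the TMM-scaled counts. Mean FPKM was higher at 24 h for 9 of the 10 members, with POLH the exception at 4.83 ± 0.232 FPKM at 24 h and 5.06 ± 0.113 FPKM at 0 h (SD, n = 3 each). In 5 members, POLI, REV1, MAD2L2, RAD18 and PRIMPOL, every FPKM value at 24 h exceeded every one at 0 h, and none showed the opposite, beside 33.3% of all genes tested higher and 3.01% lower. The library totals implied by the FPKM differed less between the times than the sums of gene counts. Scaling the counts by those totals moved the median of all genes tested by 0.24 on the log2 scale, and moved the 10 members by 0.24 to 0.25. Under that scaling RAD18 (0.47 ± 0.15, edgeR adjusted p = 0.0271) and PRIMPOL (0.64 ± 0.20, adjusted p = 0.0271) rose, 2 of 10 beside 17.6% of all genes tested, and 0 fell, beside 1.46%. PRIMPOL also rose by limma on log2(FPKM + 1), at 0.47 with an adjusted p of 0.0476, where 12.4% of all genes tested rose. Scaling by FPKM totals replaces only the library totals, which moves all genes by nearly the same amount. The place of the members relative to the median of all genes was therefore kept by construction and is no separate result.

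**Figure D4:**
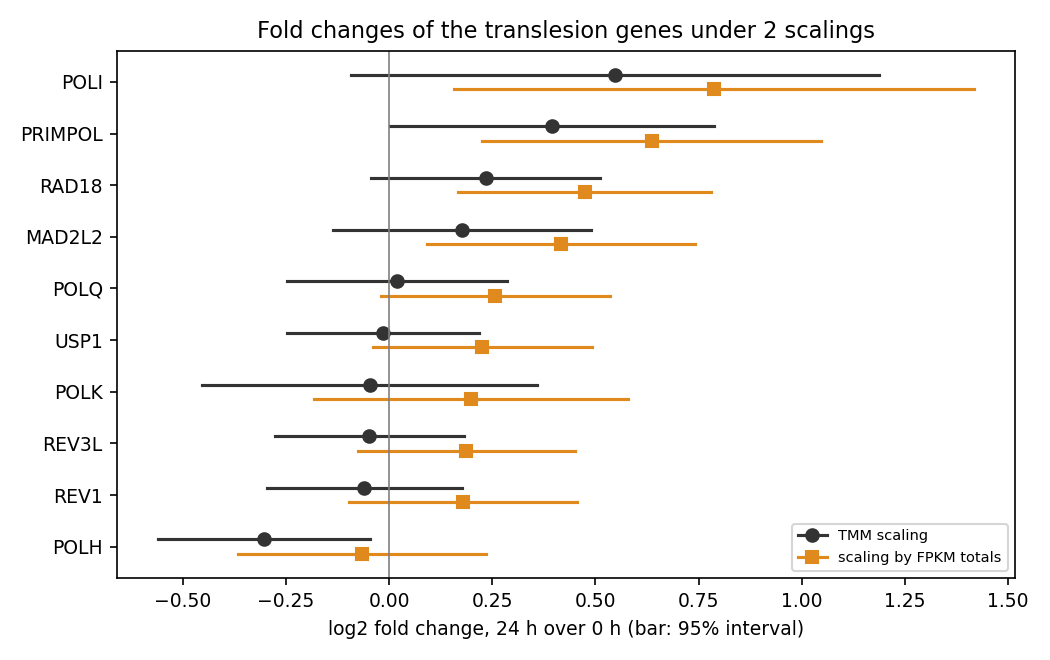
Log2 fold change (24 h over 0 h) of each translesion gene with its 95% interval, under TMM scaling (circles) and under scaling by the library totals that the deposited FPKM imply (squares). The second scaling moves each gene up by 0.24 to 0.25, so that POLH stands at -0.066 instead of -0.30 and PRIMPOL at 0.64 instead of 0.39.

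Around the members, 50 genes in 5 lists were examined for partners of the pathway, of which 49 were in the table and tested. Before adjustment 10 of the 49 had p under 0.05, beside 18.1% of all genes tested. After adjustment edgeR and DESeq2 each called 0 of the 49, beside 2.94% and 1.17% of all genes in those fits. Of 18 genes of the PCNA ubiquitin cycle and fork tolerance, 0 were called and 6 had an unadjusted p under 0.05 (18.1% of all genes tested), with a median log2 fold change of 0.025. SIVA1, which brings PCNA to RAD18, had 39.6, 54.8 and 38.5 CPM at 24 h, against 32.5, 28.0 and 34.2 CPM at 0 h. Its groups did not overlap, and its log2 fold change was 0.49 ± 0.15 (SE, n = 3 each) with an edgeR adjusted p of 0.0904. SHPRH, a ligase that extends the ubiquitin chain on PCNA, had 35.6, 35.2 and 35.5 CPM at 24 h, against 49.4, 44.1 and 42.7 CPM at 0 h. It lay lower in every 24 h library, at -0.36 ± 0.11 and an edgeR adjusted p of 0.106. Of the 18 genes, 4 lay wholly higher at 24 h and 3 wholly lower, beside 10.9% and 11.7% of all genes tested. PCNA itself, named here after its values were seen, averaged 263 ± 26.2 CPM at 24 h and 214 ± 26.0 CPM at 0 h (SD, n = 3 each), at 0.30 ± 0.11 on the log2 scale. PCNA has pseudogene copies, and how shared reads were counted is not given in the sources used here. Without 0 h replicate 3, 3 of this list rose, SIVA1 among them (0.56), and SHPRH fell by 0.40 on the log2 scale. In that fit 10.9% of all 13727 genes tested were called, with 574 rises and 923 falls, against 2.94% with all libraries.

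Of the list of clamp loader, RPA and polymerase delta, 0 genes were called and 3 of 12 had an unadjusted p under 0.05, beside the same 18.1%. Of its 12 genes 10 had a log2 fold change above 0, beside 49.7% of all genes tested, and the median was 0.17. RFC5, a subunit of the loader that places PCNA on DNA, averaged 90.4 ± 5.89 CPM at 24 h and 72.7 ± 2.37 CPM at 0 h (SD, n = 3 each), and its partner RFC2 averaged 91.6 ± 5.27 CPM at 24 h and 74.7 ± 5.48 CPM at 0 h. Neither group pair overlapped, with edgeR adjusted p = 0.109 for RFC5 and 0.140 for RFC2. Such a separation upward was seen for 3 of the 12, beside 10.9% of all genes tested. Without 0 h replicate 3, 2 of the 12 rose, RFC2 (0.33) among them, in the fit where 574 of all 13727 genes tested rose.

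No gene of the remaining lists was called. Among 11 partners of POLQ in end joining, the median was 0.066 and 1 had an unadjusted p under 0.05, again beside 18.1%. FEN1, a flap nuclease, was at 0.25 ± 0.10 and XRCC1, a scaffold of single-strand repair, at -0.26 ± 0.14 on the log2 scale (SE, n = 3 each). Without 0 h replicate 3, 2 of the 11 rose, FEN1 (0.32) among them, beside the same 574 rises among all 13727 genes tested. Of shieldin and its recruiters, which share MAD2L2, 4 were tested. SHLD2, a shieldin subunit, was at 0.21 ± 0.16 and RIF1, which helps recruit it, at 0.20 ± 0.12. Among 4 other gap-filling polymerases, POLN (-0.34 ± 0.29) and POLM (-0.63 ± 0.37) had few counts, 30 to 56 for POLN and 7 to 16 for POLM over both times.

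**Figure D5:**
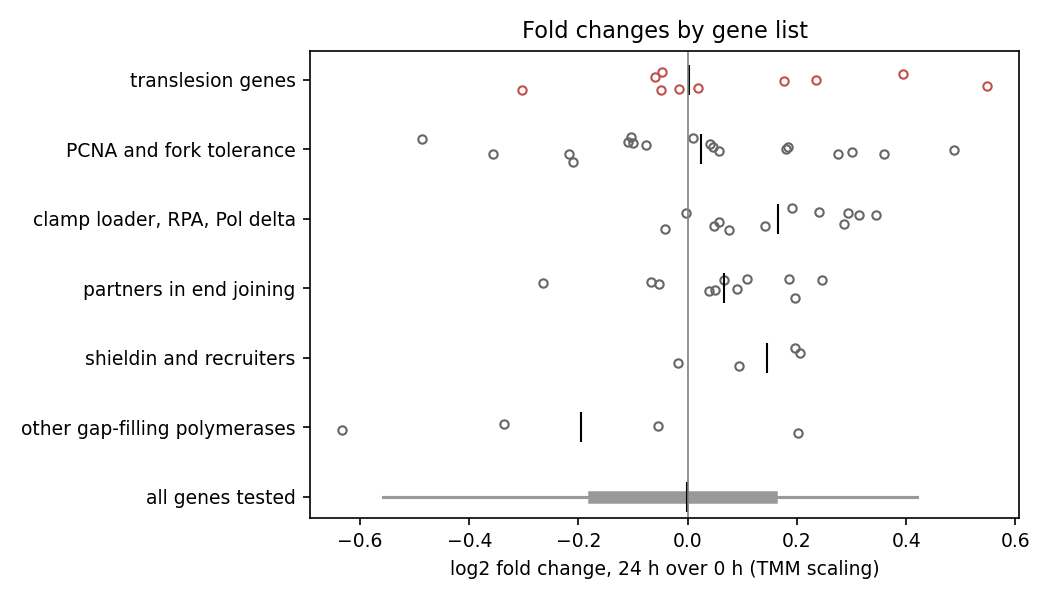
Log2 fold changes (24 h over 0 h, TMM scaling) of the translesion genes (red) and of the 5 partner lists (grey circles, 1 per gene), with black ticks at the medians. The bottom bar shows all genes tested, with the thin line from the 5th to the 95th percentile (-0.56 to 0.42) and the thick part from the 25th to the 75th (-0.17 to 0.15). The translesion genes run from -0.30 to 0.55 around a median of 0.0018.

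The 250 bases before each RefSeq start were searched on both strands in 13 windows of the 10 members and in 13784 windows of tested genes. An E2F site (TTTGGCGC, TTTCCCGC, TTTGCCGC or TTTCGCGC) was found in 2 member windows, those of POLI and REV3L, and in 4.24% of all windows. A CHR element (TTTGAA or TTCGAA), known from genes of the G2 phase and mitosis, was found in 3, those of POLQ, PRIMPOL and USP1, and in 10.1% of all. A CCAAT box was found in 2 member windows and 33.2% of all, and a GC box in 12 member windows and 63.9% of all. A match says only that the letters are present.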

How the data were processed

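RNA-seq of rRNA-depleted total RNA from HK-2 cells was analysed from 2 tables of 6 libraries. The authors deposited whole-number read counts per gene (28565 genes), and their FPKM values (28561 genes) are rounded to hundredths. Per the submitters' processing notes, bcl2fastq, TopHat2 and edgeR were used with GRCh38. The counter, its strand setting and its handling of shared reads were not given in the sources used here.

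The members and lists were chosen with earlier results of these data known. A quasi-likelihood fit of all 6 libraries (R 4.3.3 with edgeR 4.0.16), TMM-scaled, filtered by filterByExpr and without covariates, set 24 h (n = 3) over 0 h (n = 3); it was checked on simulated data. Adjustment by Benjamini-Hochberg covered 13389 genes, and an adjusted p under 0.05 was a call. The common biological coefficient of variation was 0.103. Named were all members and, per list, called genes and the 2 with the smallest p. PCNA, POLD2, POLD3 and the genes next to members in the annotation were named outside that rule. FPKM totals came from counts divided by FPKM over 3572 genes above 300 counts in every library. Alternatives included DESeq2 1.42.0 and limma 3.58.1 on log2(FPKM + 1) and log2(FPKM + 0.1). Positions are from GENCODE 29 and sequences from RefSeq.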

Additional observations from a re-analysis of the deposited data

How the results depend on the processing

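Of 16 alternatives, 13 called 0 of the 10 translesion genes, beside 0.826% to 12.7% of all genes tested in those 13 fits. Scaling by FPKM totals gave 2 rises, RAD18 (0.47) and PRIMPOL (0.64), and limma on log2(FPKM + 1) and log2(FPKM + 0.1) gave 1 each, PRIMPOL at 0.47 and 0.60. Of all 13389 genes tested, 2354, 1657 and 1632 rose in those fits, in the same order. POLH, POLI, MAD2L2, RAD18 and PRIMPOL kept their direction in all 16. In the others, whose estimates lie near 0, the sign turned. Scaling by FPKM totals gave 0.20 for POLK, 0.18 for REV1, 0.19 for REV3L and 0.23 for USP1. Limma on log2(FPKM + 1) gave 0.14, 0.15, 0.15 and 0.22 for the same genes, and on log2(FPKM + 0.1) 0.19, 0.17, 0.18 and 0.23. No filter on low counts gave 0.0016 for POLK, 0.0010 for REV3L and 0.032 for USP1, DESeq2 gave 0.0017 for USP1, and without both libraries numbered 3 POLQ was at -0.092 and USP1 at 0.056. Without 1 library, POLK ran from -0.25 to 0.095, REV1 from -0.12 to 0.015, REV3L from -0.096 to 0.033, POLQ from -0.11 to 0.16 and USP1 from -0.10 to 0.098. The cause was not tested.

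The partner lists are given in the order PCNA and fork tolerance, clamp loader and polymerase delta, end joining, and shieldin. They held 18, 12, 11 and 4 tested genes. Scaling by FPKM totals called 6, 6, 3 and 1 of these, beside 19.0% of all genes tested. Both limma fits called 5, 5 and 1 of the first 3 lists, beside 13.4% (pseudocount 1) and 13.2% (pseudocount 0.1) of all genes tested. The ranges without 1 library were 0 to 4, 0 to 2 and 0 to 2. Calls in those lists came only without 0 h replicate 3, where 10.9% of all genes tested were called. Without both libraries numbered 3, 2 and 1 were called in the first 2 lists, beside 6.30% of all genes tested. With no filter on low counts 2 were called in the first, beside 2.59%. Over all genes, the 394 calls (116 rises and 278 falls) became 2549 (2354 and 195) with FPKM totals, 1795 and 1768 (92.3% rises in each) by limma with pseudocounts 1 and 0.1, 740 (345 and 395) with no filter, and 845 (306 and 539) without both libraries numbered 3. Without 1 library they ran from 113 without 24 h replicate 2 to 1497 without 0 h replicate 3.

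Replicate numbers were tried as a block. Same-numbered libraries deviated together for numbers 1 and 3 (r = 0.24 and 0.42 across genes) but not for number 2 (-0.020). Set against the libraries of the other time, 4 of 6 correlated best with the one of their own number. This check is mixed and does not settle whether the numbers pair the libraries, and the main fit left them out. The replicate block gave 1698 calls (739 rises and 959 falls), 12.7% of all genes tested. It called 0 of the 10 members, 4 of 18 in the PCNA list, 3 of 12 in the clamp loader list and 1 of 11 in the end joining list. Depth limits POLI most, with 13 to 40 counts per library.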
